A study of Mus musculus with 14 samples.

Results

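The 34 genes described here are Trp53, which encodes the transcription factor p53, and its regulators and target genes. They were given as a list and matched by gene name in a table of 55335 genes. All 34 were found, and all 34 passed the filter on low counts, which kept 21509 genes. By role they comprise p53 and its feedback (4 genes), arrest and checkpoint (4), the mitotic spindle (3), death (11), repair (4), and stress, metabolism and signalling (8).

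RNA was sequenced from bone marrow cells of Cdh5 Cre Rosa26 TdTomato mice, in which Cre from the promoter of the endothelial gene Cdh5 switches on a red fluorescent protein, sorted as Lineage-, CD45- and TdTomato+ cells. All 4 groups carried this genotype: untreated mice (n = 4 libraries), mice given 500 cGy of total body irradiation from a caesium source (TBI, n = 5), mice given 20 µCi of non-targeted IgG radioimmunotherapy (IgG RIT, n = 3) and mice given 20 µCi of CD45-targeted radioimmunotherapy (CD45 RIT, n = 2). Radioimmunotherapy delivers a radionuclide on an antibody, here the alpha emitter astatine per the series title, and CD45 is a surface protein of blood cells. Cells were harvested 8 days after treatment. Age, sex and strain are not given in the sources used here, nor whether each library came from 1 mouse, so p-values measure the spread between libraries, which may be technical.

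The p53 protein is held low by Mdm2, a ubiquitin ligase that marks it for destruction and whose own gene p53 induces, which closes a feedback loop. DNA damage releases p53 from this control, mostly at the level of the protein rather than of its mRNA. The released factor raises genes that halt the cell cycle, such as Cdkn1a (the inhibitor p21), genes that trigger cell death, such as Bax and Bbc3, and genes of DNA repair and stress defence. In bone marrow it is known for the sensitivity of blood-forming cells to radiation.

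p53 binds DNA through paired copies of a consensus decamer, each of which is a half-site. The 250 bases before the annotated start were searched for this decamer, which reads the same on both strands, in the promoter table of RefSeq (GRCm38.p6), where 26 of the 34 genes had an entry. A match was present in 10 of their 39 promoters (25.6%), against 7.13% of all 32851 promoters in the table and 6.02% of the 15607 promoters of genes that passed the filter. The genes with a match were Trp53, Mdm2, Ccng1, Cdkn1a, Ckap2, Bax, Ei24, Aen, Polk and Sesn1. The genes were listed as p53 targets to begin with, so this share is a description. A match is to a half-site and is not a shown binding site. Polk was matched and higher in CD45 RIT than in each of the other groups, and its promoter is not printed. The promoters of 4 other such genes are printed 5′ to 3′ on the strand of the gene, with the matched decamers in capitals. They lie at chr17:29090729-29090978 (Cdkn1a, plus strand, matches at -73 to -64 and -51 to -42 from the start), chr10:117710759-117711008 (Mdm2, minus strand, -186 to -177), chr11:40755287-40755536 (Ccng1, minus strand, -185 to -176) and chr7:45466899-45467148 (Bax, minus strand, -201 to -192).
Cdkn1a: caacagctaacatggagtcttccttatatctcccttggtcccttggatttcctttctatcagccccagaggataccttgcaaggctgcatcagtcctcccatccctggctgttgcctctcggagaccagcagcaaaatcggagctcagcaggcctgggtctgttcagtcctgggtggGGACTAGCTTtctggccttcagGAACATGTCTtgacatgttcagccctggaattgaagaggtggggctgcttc
Mdm2: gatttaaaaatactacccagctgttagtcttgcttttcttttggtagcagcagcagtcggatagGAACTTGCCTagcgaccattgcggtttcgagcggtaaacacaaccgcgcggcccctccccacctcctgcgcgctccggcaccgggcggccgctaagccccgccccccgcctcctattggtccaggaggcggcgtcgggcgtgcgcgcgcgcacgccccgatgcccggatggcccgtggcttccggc
Ccng1: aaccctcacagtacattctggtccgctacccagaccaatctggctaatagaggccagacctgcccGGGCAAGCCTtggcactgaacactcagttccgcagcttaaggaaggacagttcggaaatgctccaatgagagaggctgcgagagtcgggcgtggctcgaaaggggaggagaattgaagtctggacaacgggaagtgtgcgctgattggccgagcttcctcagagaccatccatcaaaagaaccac
Bax: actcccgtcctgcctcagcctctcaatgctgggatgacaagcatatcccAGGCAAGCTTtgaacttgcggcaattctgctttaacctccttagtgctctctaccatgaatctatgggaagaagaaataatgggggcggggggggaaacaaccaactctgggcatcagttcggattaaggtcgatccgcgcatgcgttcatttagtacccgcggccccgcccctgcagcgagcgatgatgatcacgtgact

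The libraries held 16412779 to 31077588 counts, and 17700 to 26752 genes had counts. The library TBI 6 and both CD45 RIT libraries stood apart, and the CD45 RIT libraries correlated with each other at 0.673 across genes, against 0.906 or more within the other groups. Endothelial markers differed from one another. Cdh5, whose promoter drives the Cre, had 0 to 6 counts in untreated, 0 to 5 in TBI and 0 in all RIT libraries. Pecam1 had 894 to 1957 counts in untreated, 44 to 820 in TBI, 72 to 171 in IgG RIT and 6 and 4 in CD45 RIT. Kdr and Plvap had 2390 and 2561 counts in CD45 RIT 2, against 1 and 223 in CD45 RIT 1. The sum of 20 endothelial markers was 185 to 230 CPM (counts scaled to library size) in untreated, 69.1 to 157 in TBI, 66.5 to 77.0 in IgG RIT and 127 and 328 in CD45 RIT, where 6 of the 20 were at 0 in both libraries. Marker sums of other cells moved with the groups. Stromal markers summed to 3979 to 9347 CPM in untreated, 1179 to 2407 in TBI, 806 to 1664 in IgG RIT and 50611 and 86288 in CD45 RIT. Erythroid markers (11 genes) summed to 8136 to 14968 CPM in untreated, 25715 to 44601 in 4 TBI libraries, 176045 in TBI 6, 133679 to 141895 in IgG RIT and 191606 and 47406 in CD45 RIT. Haematopoietic markers (15 genes) summed to 2664 to 3240 CPM in untreated, 271 to 1602 in TBI, 310 to 493 in IgG RIT and 360 and 145 in CD45 RIT. These 15 genes were uneven in CD45 RIT. Runx1 gave the most counts there, 4413 and 1594 (1707 to 2738 in untreated), while 2 of the 15 had 0 in both libraries. Neutrophil markers (11 genes) summed to 10283 to 12918 CPM in untreated, 89.1 to 1216 in TBI, 598 to 800 in IgG RIT and 5.23 and 14.6 in CD45 RIT. Macrophage markers (10 genes) summed to 78.9 to 88.6 CPM in untreated, 15.4 to 25.9 in TBI, 8.20 to 18.3 in IgG RIT and 74.4 and 160 in CD45 RIT. The part of these shifts in the results that follow was not tested beyond the values given, and in bulk RNA fewer cells of a type and less RNA per cell cannot be told apart.

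Many of the p53 target genes were higher in CD45 RIT, fewer were called in IgG RIT and none passed the test in TBI. Against untreated, 15 of the 34 genes were higher and 5 lower in CD45 RIT at an adjusted p under 0.05 (edgeR quasi-likelihood test, as for every adjusted p here), where 33.1% of all genes tested were called, 14.5% higher and 18.6% lower. In IgG RIT 7 were higher and 3 lower, where 16.4% of all genes were called, 5.75% higher and 10.7% lower. In TBI 0 were called, where 4.31% of all genes were called, 0.921% higher and 3.38% lower. At an unadjusted p under 0.05 in TBI there were 11 of the 34 genes and 3925 of all 21509. The median log2 fold change of the 34 genes was 1.58 in CD45 RIT, -0.25 in IgG RIT and 0.11 in TBI, beside -0.37, -0.42 and -0.16 over all genes tested. These 3 comparisons share the untreated libraries. Counting genes whose libraries did not overlap with untreated, CD45 RIT had 17 of 34 above and 5 below (17.5% and 29.8% of all genes). IgG RIT had 9 above and 9 below (15.6% and 27.4%), and TBI had 4 above and 4 below (6.34% and 12.8%). A second tool, DESeq2, called 5 genes higher in TBI (Ccng1, Ckap2, Gdf15, Mdm2 and Psrc1). Of all 21509 genes it called 978 higher and 1508 lower there. Without TBI 6 the edgeR test called 1 of the 34 higher in TBI, and 165 of all genes higher and 662 lower. Without either CD45 RIT library, which left 1 in that group, it called several of the 34 in TBI. Its calls over all genes rose in those fits as well.

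**Figure D1:**
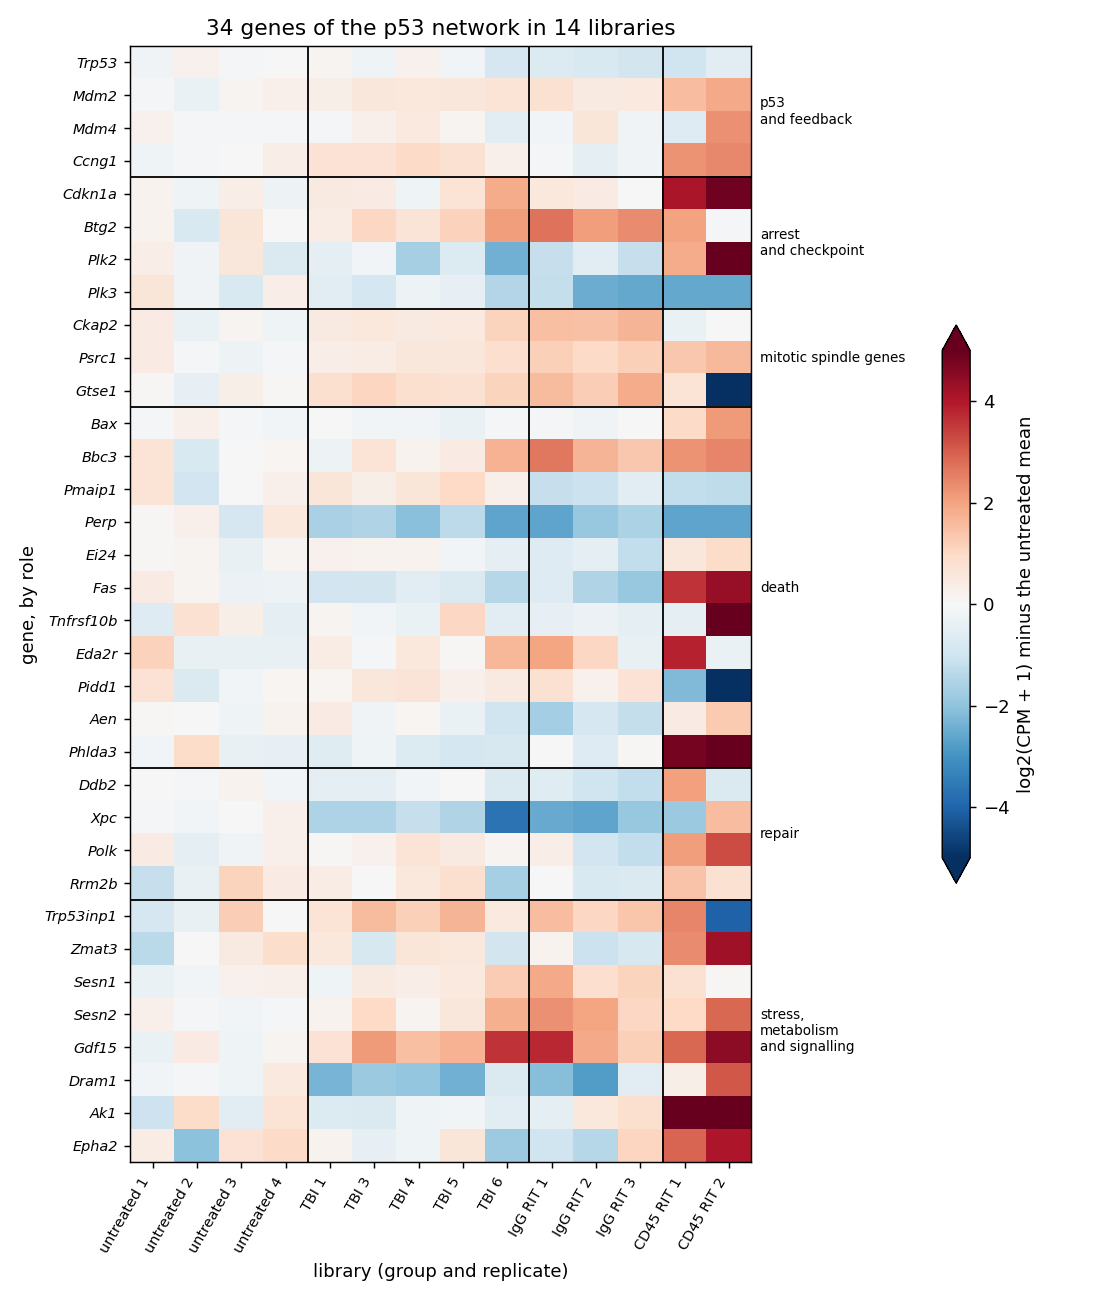
Rows are the 34 genes by role, columns the 14 libraries, and the colour is log2(CPM + 1) minus the untreated mean of the gene (scale from blue, lower, to red, higher). Red is densest in the 2 CD45 RIT columns, from Cdkn1a to Ak1, and Trp53 in the top row is blue in every RIT library.

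**Figure D2:**
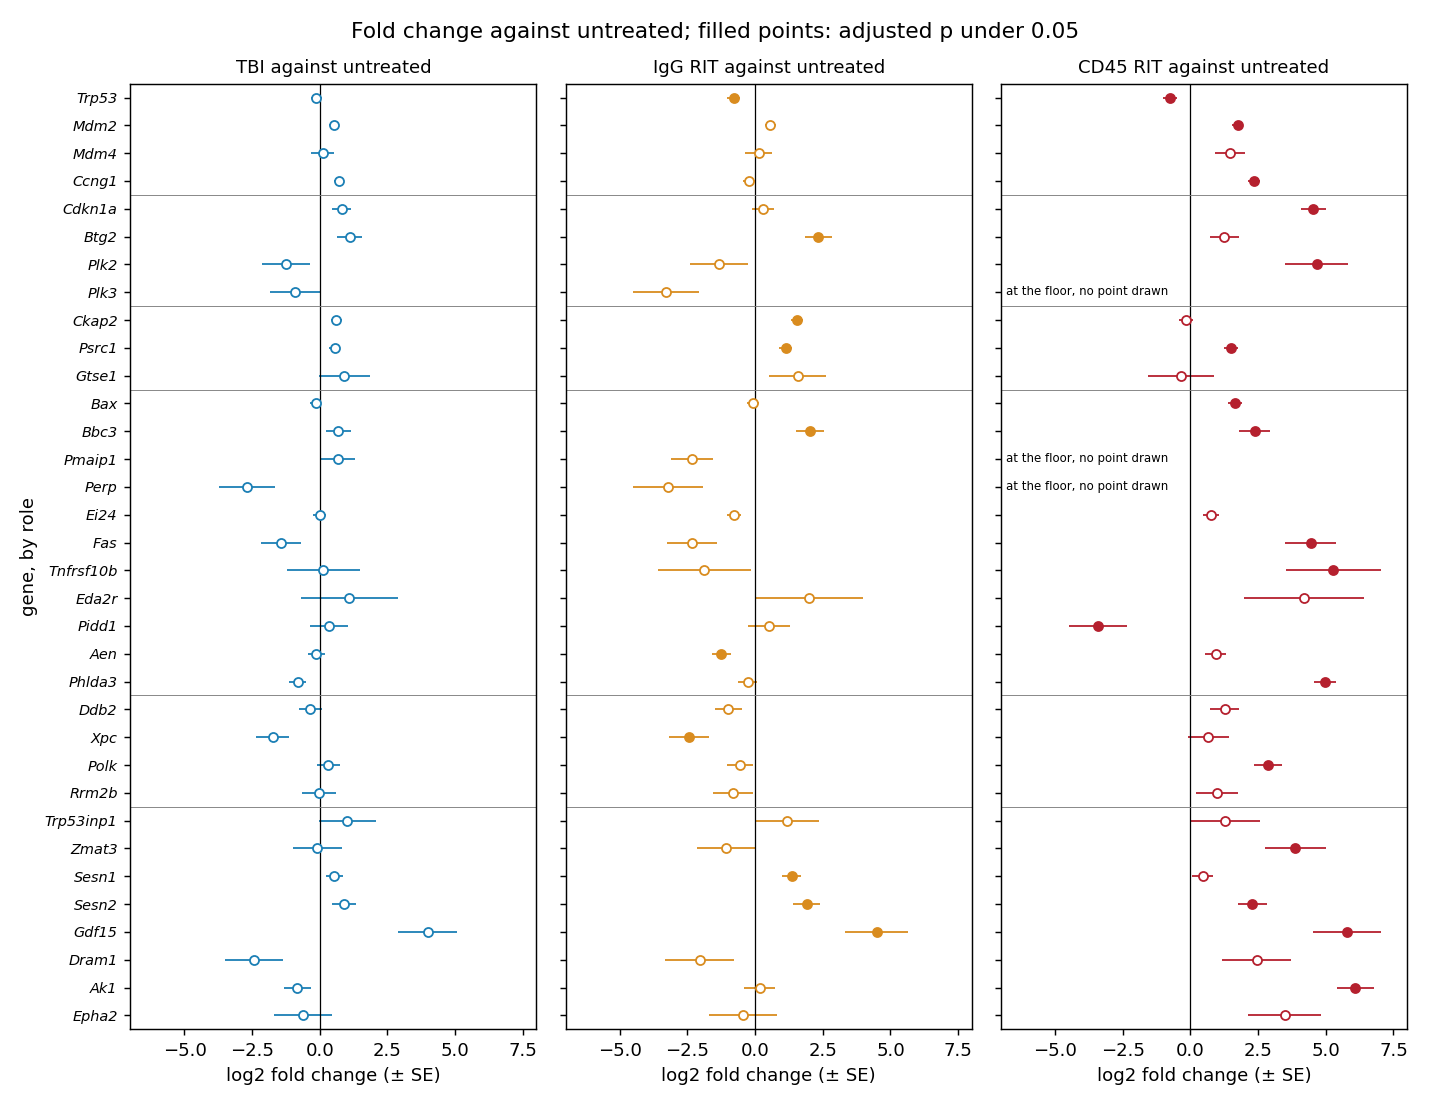
Points are log2 fold changes against untreated (bars, SE) for the 34 genes in TBI, IgG RIT and CD45 RIT, filled where the adjusted p was under 0.05. There are 0 filled points in the TBI panel, 10 in the IgG RIT panel and 17 in the CD45 RIT panel, where 3 further genes at 0 or 1 counts per library carry no point.

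Among p53 and its feedback genes, Mdm2 and Ccng1 rose in CD45 RIT while the mRNA of p53 itself fell. Trp53 stood at 210, 275, 230 and 244 CPM in untreated, 260, 204, 281, 214 and 132 in TBI, 149, 141 and 126 in IgG RIT and 120 and 162 in CD45 RIT. All 5 RIT libraries lay below all 4 untreated ones, and TBI 6 lay within the range of the IgG RIT libraries. The log2 fold change against untreated was -0.76 ± 0.27 (SE) in CD45 RIT (adjusted p = 0.0459), -0.79 ± 0.23 (SE) in IgG RIT (adjusted p = 0.0384) and -0.14 ± 0.20 (SE) in TBI (adjusted p = 0.822). These are calls near the threshold: the first held in 3 and the second in 5 of the 14 fits that each left out 1 library, and leaving out any untreated or IgG RIT library ended both. With another scaling of library sizes (RLE) the values were -0.48 (adjusted p = 0.156) and -0.58 (adjusted p = 0.0948).

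Mdm2, the ligase of the feedback loop, was at 46.0, 37.2, 52.2 and 57.2 CPM in untreated, 58.2, 70.9, 68.7, 70.5 and 77.8 in TBI, 81.1, 65.3 and 66.2 in IgG RIT and 142 and 179 in CD45 RIT. The 3 treated groups each lay above every untreated library and CD45 RIT lay above all the others. Its log2 fold change against untreated was 1.74 ± 0.21 (SE) in CD45 RIT (adjusted p = 1.04e-04). The test was not passed in IgG RIT (0.56, SE 0.20, adjusted p = 0.0688) or TBI (0.52, SE 0.17, adjusted p = 0.116). Ccng1, the p53-induced cyclin G1, which acts back on Mdm2, was at 40.6, 43.9, 46.5 and 58.8 CPM in untreated, 78.3, 78.3, 91.1, 80.3 and 56.1 in TBI, 45.6, 33.7 and 42.0 in IgG RIT and 229 and 253 in CD45 RIT. It rose in CD45 RIT by 2.34 ± 0.22 (SE) on the log2 scale (adjusted p = 1.89e-05). In TBI only library 6 reached down into the untreated range, and the difference of 0.69 (SE 0.18, adjusted p = 0.0530) was the nearest to the threshold of any member; without TBI 6 it was 0.79 (adjusted p = 0.0225). Mdm4, a relative of Mdm2 that blocks p53, was at 37.8 to 47.8 CPM in untreated, 28.2 to 57.5 in TBI and 35.8 to 62.4 in IgG RIT, and its CD45 RIT libraries disagreed, at 25.4 and 201. It was not called in any of the 6 comparisons.

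**Figure D3:**
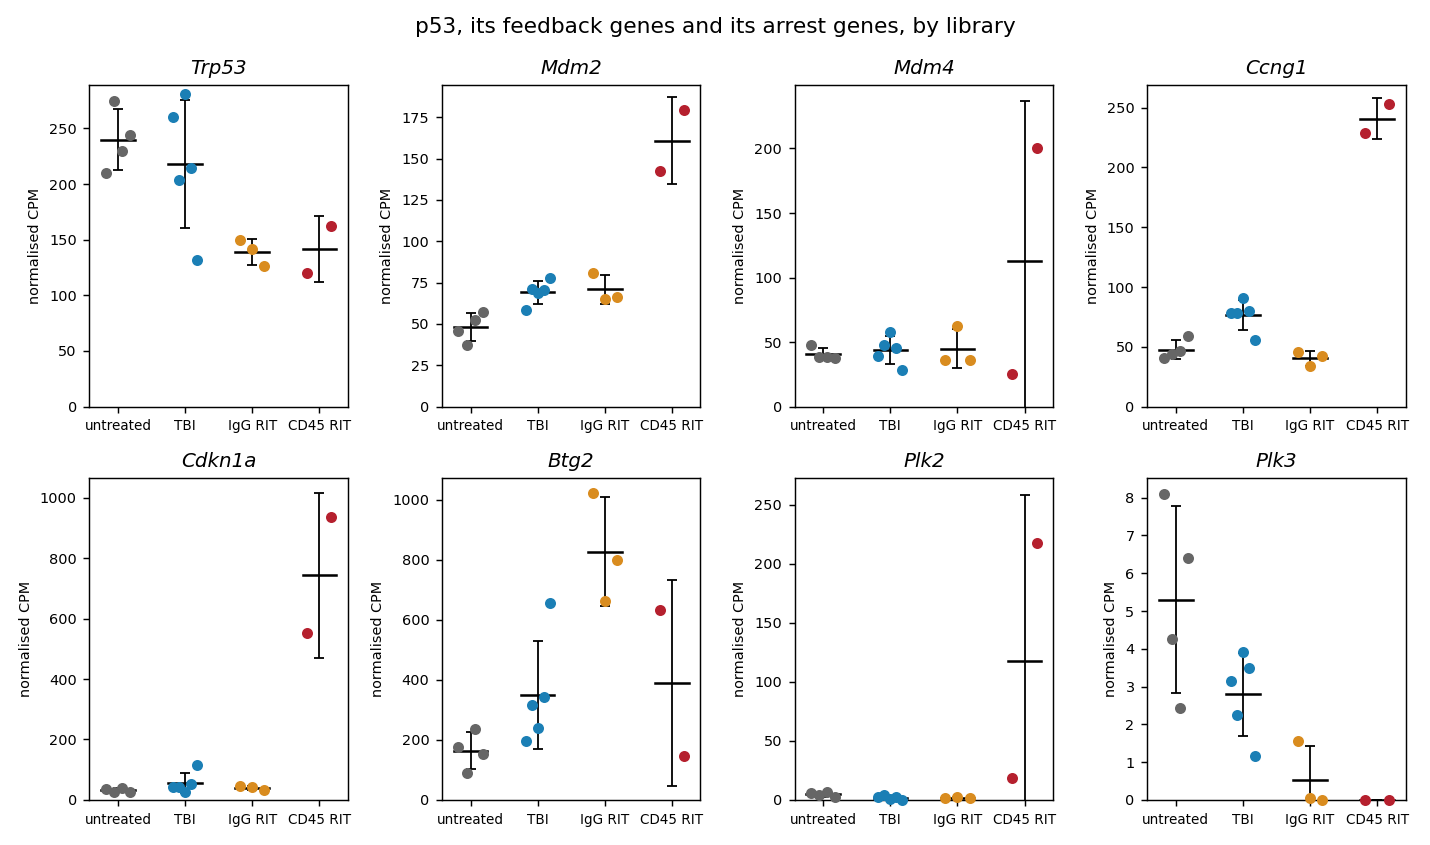
Normalised CPM of the 4 feedback and 4 arrest genes by group; points are libraries, lines are means and bars are SDs, cut at 0. The CD45 RIT points of Mdm2, Ccng1 and Cdkn1a lie above all others, those of Plk3 are at 0, and those of Mdm4 and Plk2 lie far apart.

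Of the arrest and checkpoint genes, Cdkn1a and Plk2 rose and Plk3 fell in CD45 RIT, and Btg2 rose in IgG RIT. Cdkn1a, which encodes p21, was at 35.1, 26.7, 39.6 and 26.1 CPM in untreated, 43.0, 41.8, 26.7, 51.2 and 115 in TBI, 45.2, 41.6 and 31.3 in IgG RIT and 551 and 935 in CD45 RIT. TBI 6 was the highest library outside CD45 RIT, and both CD45 RIT libraries were higher still. The log2 fold change against untreated was 4.54 ± 0.47 (SE) in CD45 RIT (adjusted p = 3.44e-05), 0.30 ± 0.41 (SE) in IgG RIT (adjusted p = 0.648) and 0.80 ± 0.37 (SE) in TBI (adjusted p = 0.270). An annotated gene lies on the opposite strand at Cdkn1a, as at Mdm4, Plk3, Ei24, Ddb2, Polk and Rrm2b, and whether counting used strand is not given in the sources used here. Bax, Fas, Sesn1 and Sesn2, and Rrm2b again, overlap a gene on their own strand. The counts of all these genes are uncertain to the extent that reads were shared.

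Btg2, an antiproliferative cofactor of mRNA deadenylation, was at 175, 90.6, 237 and 152 CPM in untreated, 198, 314, 241, 342 and 656 in TBI, 1023, 661 and 797 in IgG RIT and 633 and 148 in CD45 RIT. IgG RIT lay above every other library, with TBI 6 next at 656, and of the CD45 RIT libraries one lay above the untreated range and the other within it. Its log2 fold change was 2.34 in IgG RIT against untreated (SE 0.51, adjusted p = 0.0100) and 1.25 ± 0.55 (SE) in CD45 RIT (adjusted p = 0.0941). Plk2, a stress-induced polo-like kinase, was at 2.22 to 6.84 CPM in untreated, 0 to 3.91 in TBI, 1.39 to 2.69 in IgG RIT and 18.2 and 217 in CD45 RIT. Its log2 fold change of 4.66 (SE 1.16, adjusted p = 0.00956) was 2.00 without CD45 RIT 2. Here and below, a fit without a CD45 RIT library leaves 1 in that group, so its p-values include no spread of that group. Plk3, a second kinase of that family, went the other way, from 8.10, 4.25, 2.44 and 6.41 CPM in untreated to 0 counts in both CD45 RIT libraries. Against a floor of 3 counts per library it was at least 32.4-fold lower (adjusted p = 0.00847). The IgG RIT libraries had 1.56, 0.0498 and 0 CPM (adjusted p = 0.0878 against untreated).

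Of the mitotic spindle genes, Ckap2 and Psrc1 rose in IgG RIT, and Psrc1 also rose in CD45 RIT. Ckap2, a microtubule-binding spindle protein, was at 69.4, 40.6, 57.3 and 44.8 CPM in untreated, 71.2, 74.8, 71.9, 73.6 and 115 in TBI, 150, 144 and 170 in IgG RIT and 41.5 and 53.1 in CD45 RIT. It rose in IgG RIT by 1.54 ± 0.24 (SE) on the log2 scale (adjusted p = 0.00254), while in CD45 RIT it was within the untreated range. Psrc1, which recruits the microtubule depolymerase Kif2a to the spindle, was at 20.7 to 33.7 CPM in untreated, 31.8 to 45.9 in TBI, 48.9 to 58.7 in IgG RIT and 64.8 and 78.4 in CD45 RIT. It rose by 1.13 ± 0.24 (SE) in IgG RIT (adjusted p = 0.00824). The rise was 1.50 ± 0.26 (SE) in CD45 RIT (adjusted p = 0.00108). Gtse1, which binds p53 and microtubules in G2, was at 34.1 to 56.8 CPM in untreated, 77.5 to 99.4 in TBI, 109 to 169 in IgG RIT and 73.5 and 0 in CD45 RIT. It was not called in any of the 6 comparisons when all 14 libraries were fitted. With only the 2 groups compared it was called higher than untreated in TBI and in IgG RIT. All TBI and IgG RIT libraries lay above all untreated ones. A list of 12 proliferation markers ran alongside: it summed to 2626 to 3762 CPM in untreated, 4941 to 6840 in TBI, 7845 to 8035 in IgG RIT and 1787 and 295 in CD45 RIT. Its part in the Ckap2, Psrc1 and Gtse1 levels was not tested.

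Of 11 death genes, 5 were called higher in CD45 RIT (Bax, Bbc3, Fas, Tnfrsf10b and Phlda3) and 3 lower (Pmaip1, Perp and Pidd1). These are 45.5% and 27.3%, beside 14.5% and 18.6% of all genes, so the lower share is not far from that of all genes. Counts were found for 20994 and 17700 genes in the CD45 RIT libraries, fewer than in any other library. The part of this in the lower calls was not tested. Phlda3, which blocks the survival kinase Akt at the membrane, was at 9.30, 19.8, 7.68 and 7.38 CPM in untreated, 6.34, 8.51, 5.87, 5.05 and 5.46 in TBI, 10.5, 6.18 and 10.7 in IgG RIT and 303 and 388 in CD45 RIT. No other library exceeded 19.8 CPM, and the log2 fold change against untreated was 4.97 ± 0.41 (SE) in CD45 RIT (adjusted p = 8.97e-06), -0.28 ± 0.36 (SE) in IgG RIT (adjusted p = 0.633) and -0.82 ± 0.31 (SE) in TBI (adjusted p = 0.177). Bax, the pore-forming effector of mitochondrial death, was at 75.7, 92.9, 75.3 and 70.7 CPM in untreated, 78.2, 70.2, 70.6, 62.3 and 73.3 in TBI, 74.0, 68.8 and 79.8 in IgG RIT and 153 and 342 in CD45 RIT. The other 12 libraries spanned 62.3 to 92.9 CPM, and the log2 fold change was 1.66 ± 0.26 (SE) in CD45 RIT (adjusted p = 5.11e-04), -0.08 ± 0.23 (SE) in IgG RIT (adjusted p = 0.840) and -0.15 ± 0.21 (SE) in TBI (adjusted p = 0.805). Without CD45 RIT 2 the CD45 RIT value was 1.01.

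Bbc3, which encodes the BH3-only activator Puma, was at 14.9, 4.97, 8.78 and 9.81 CPM in untreated, 7.43, 15.0, 10.3, 12.3 and 32.2 in TBI, 61.9, 31.3 and 24.3 in IgG RIT and 47.0 and 53 in CD45 RIT. All 5 RIT libraries lay above all untreated ones, as did TBI 6. The log2 fold change was 2.38 ± 0.57 (SE) in CD45 RIT (adjusted p = 0.00804) and 2.03 ± 0.53 (SE) in IgG RIT (adjusted p = 0.0236), the latter 1.53 (adjusted p = 0.108) without IgG RIT 1 and also not called without untreated 2, 3 or 4 (adjusted p 0.0553 to 0.0587). Fas, a death receptor, was at 3.85, 3.05, 2.00 and 2.11 CPM in untreated, 0.920, 0.934, 1.53, 1.25 and 0.359 in TBI, 1.33, 0.299 and 0 in IgG RIT and 44.5 and 75.1 in CD45 RIT. Its log2 fold change was 4.44 ± 0.94 (SE) in CD45 RIT (adjusted p = 0.00391), whereas all 8 libraries of TBI and IgG RIT lay below the untreated range without passing the test (adjusted p = 0.333 and 0.101). Tnfrsf10b, the mouse TRAIL receptor, was called in CD45 RIT on 1 library: it had 2 counts in CD45 RIT 1 and 1074 in CD45 RIT 2. The log2 fold change of 5.28 (SE 1.76, adjusted p = 0.0366) became -2.33 (adjusted p = 0.445) without the latter. The call was also lost without TBI 1 or untreated 1, 3 or 4 (adjusted p 0.0514 to 0.0824).

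The 3 death genes that fell in CD45 RIT sit at different steps. Pmaip1 encodes the BH3-only protein Noxa, Perp a membrane protein of desmosomes and p53-dependent death, and Pidd1 a scaffold that activates caspase-2. Pidd1 was at 90.2, 32.6, 49.0 and 57.5 CPM in untreated, 58.1 to 84.5 in TBI, 62.7 to 92.3 in IgG RIT and 10.7 and 0.0962 in CD45 RIT. Both CD45 RIT libraries lay below the other 12, and the log2 fold change was -3.41 (SE 1.08, adjusted p = 0.0299), or -3.10 (adjusted p = 0.0533) without untreated 1. The size rested on the CD45 RIT libraries, at -9.15 without CD45 RIT 1 and -2.38 without CD45 RIT 2. Perp was at 2.50 to 8.14 CPM in untreated, 0 to 1.56 in TBI, 0 to 1.10 in IgG RIT and 0 in both CD45 RIT libraries, at least 34.5-fold lower than untreated against the floor of 3 counts (adjusted p = 0.0110). Pmaip1 had 1 count in each CD45 RIT library, against 0.299 to 2.99 CPM in untreated, 2.01 to 3.93 in TBI and 0.116 to 0.683 in IgG RIT. The ratio of untreated to CD45 RIT was 31.6 (95% interval 8.75 to 261, counting error only; adjusted p = 0.00635).

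**Figure D4:**
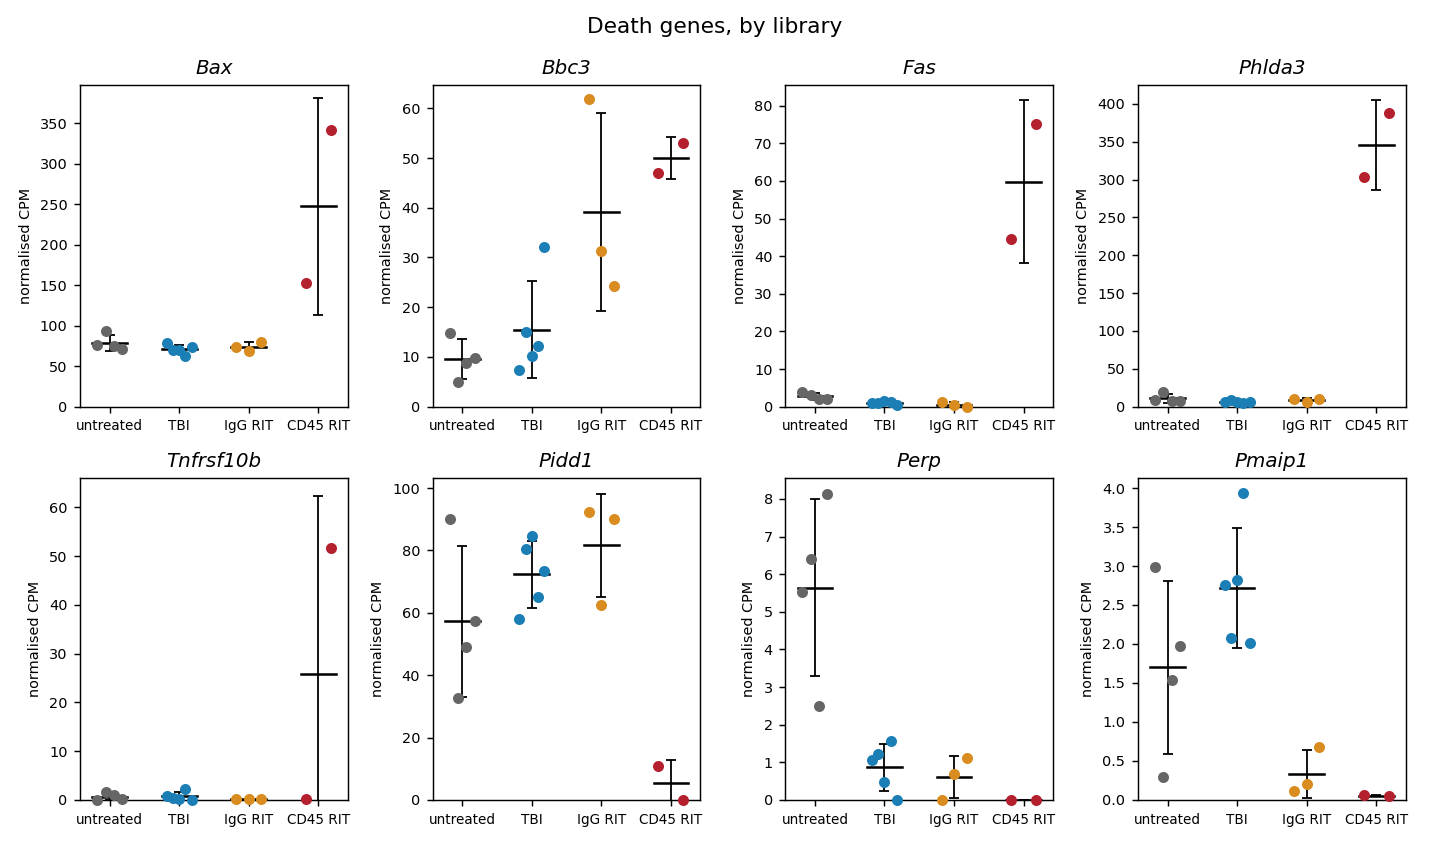
Normalised CPM of 8 death genes by group; points are libraries, lines are means and bars are SDs, cut at 0. Both CD45 RIT points of Bax, Fas and Phlda3 lie above all others, those of Pidd1, Perp and Pmaip1 lie at the bottom, and Tnfrsf10b is high in 1 library.

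The remaining death genes were not called against untreated in CD45 RIT. Aen, an apoptosis-enhancing nuclease, was at 41.3 to 54.7 CPM in untreated, 24.1 to 66.0 in TBI, 14.1, 27.1 and 20.6 in IgG RIT and 66.0 and 121 in CD45 RIT. It fell in IgG RIT by 1.25 ± 0.36 (SE) on the log2 scale (adjusted p = 0.0332), a call that held in 9 of the 14 fits without 1 library and was lost without IgG RIT 1, IgG RIT 3 or untreated 1, 2 or 4 (adjusted p 0.0622 to 0.126). Ei24, a protein of the endoplasmic reticulum, was at 34.2 to 48.6 CPM in untreated, 31.4 to 50.6 in TBI, 18.2 to 30.7 in IgG RIT and 66.3 and 83.4 in CD45 RIT. Both Aen and Ei24 lay above every untreated library in CD45 RIT (adjusted p = 0.0764 and 0.0633). Eda2r, a receptor for ectodysplasin A2, had 0 counts in 3 of 4 untreated libraries and differed between the CD45 RIT libraries, at 17.9 and 0.0481 CPM.

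Among repair genes only Polk was higher in CD45 RIT than in untreated. Polk, a translesion DNA polymerase, was at 12.1, 5.90, 7.61 and 10.6 CPM in untreated, 9.17, 10.4, 14.8, 12.3 and 9.62 in TBI, 11.2, 4.03 and 3.10 in IgG RIT and 40.6 and 91.5 in CD45 RIT. Its log2 fold change was 2.87 (SE 0.52, adjusted p = 0.00146), with both CD45 RIT libraries above the other 12. Xpc, a damage sensor of nucleotide excision repair, was at 51.1, 48.7, 53.8 and 64.6 CPM in untreated, 17.8, 17.7, 23.9, 18.7 and 3.23 in TBI, 8.63, 7.92 and 13.7 in IgG RIT and 14.5 and 158 in CD45 RIT. All TBI and IgG RIT libraries lay below all untreated ones. In IgG RIT it fell by 2.43 ± 0.74 (SE) on the log2 scale (adjusted p = 0.0423), a call that held in 3 of 14 fits without 1 library, and the TBI value was -1.74 (SE 0.60, adjusted p = 0.130). Ddb2, which recognises UV lesions, was at 18.6 to 23.1 CPM in untreated, 12.0 to 20.9 in TBI, 8.20 to 13.1 in IgG RIT and 86.7 and 11.9 in CD45 RIT. Rrm2b, the p53-inducible subunit of ribonucleotide reductase, was at 2.25 to 15.0 CPM in untreated, 1.29 to 11.8 in TBI, 3.29 to 6.25 in IgG RIT and 18.6 and 11.4 in CD45 RIT. It was not called in any of the 6 comparisons. With the haematopoietic marker sum as a covariate it was called higher in CD45 RIT than in IgG RIT and TBI.

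Stress, metabolism and signalling genes gave 4 higher calls of 8 in CD45 RIT (Ak1, Zmat3, Sesn2 and Gdf15) and 3 of 8 in IgG RIT (Sesn1, Sesn2 and Gdf15), beside 14.5% and 5.75% of all genes. Ak1, an adenylate kinase, was at 1.68, 9.58, 2.7 and 7.94 CPM in untreated, 2.41, 2.39, 3.72, 3.97 and 2.80 in TBI, 2.9, 6.92 and 8.57 in IgG RIT and 227 and 521 in CD45 RIT. It had the largest log2 fold change of the 34 genes in CD45 RIT against untreated, apart from the 3 at or near 0 counts, at 6.09 (SE 0.68, adjusted p = 5.46e-05). Gdf15, a secreted stress cytokine, was at 0.0262, 0.718, 0.134 and 0.451 CPM in untreated, 1.13, 4.63, 2.72, 3.4 and 15.0 in TBI, 17.0, 3.89 and 1.94 in IgG RIT and 8.60 and 28.1 in CD45 RIT. Every one of the 10 treated libraries lay above every untreated one. The log2 fold change was 5.77 ± 1.26 (SE) in CD45 RIT (adjusted p = 0.00464), 4.50 ± 1.16 (SE) in IgG RIT (adjusted p = 0.0224) and 3.99 ± 1.09 (SE) in TBI (adjusted p = 0.0599). The IgG RIT call was lost without IgG RIT 1 (3.12, adjusted p = 0.102), untreated 3 (4.24, adjusted p = 0.0578) or untreated 4 (4.68, adjusted p = 0.0516).

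The sestrins, which restrain mTORC1 under stress, were both higher in IgG RIT. Sesn1 was at 46.7, 54.3, 69.1 and 69.9 CPM in untreated, 50.9, 81.1, 75.4, 83.2 and 146 in TBI, 226, 105 and 130 in IgG RIT and 102 and 62.5 in CD45 RIT. In IgG RIT its log2 fold change was 1.36 (SE 0.35, adjusted p = 0.0237). Sesn2 was at 20.0, 15.4, 15.1 and 15.8 CPM in untreated, 18.6, 33.9, 18.3, 25 and 58.9 in TBI, 83.6, 67.4 and 34.6 in IgG RIT and 34 and 128 in CD45 RIT. It was called in both IgG RIT (1.90, SE 0.51, adjusted p = 0.0250) and CD45 RIT (2.29, SE 0.55, adjusted p = 0.00777). TBI 6 was the highest TBI library for both sestrins. Left-out libraries ended these calls: IgG RIT 1, untreated 1 or untreated 2 for Sesn1 (adjusted p 0.0581 to 0.117), IgG RIT 1 or 2 or untreated 2, 3 or 4 for Sesn2 in IgG RIT (0.0596 to 0.0942), and CD45 RIT 2 for Sesn2 in CD45 RIT (1.08, adjusted p = 0.180).

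Zmat3, an RNA-binding zinc finger protein, was at 0.105 to 4.12 CPM in untreated, 0.503 to 3.24 in TBI, 0.349 to 2.20 in IgG RIT and 13.5 and 52.4 in CD45 RIT. Its log2 fold change of 3.88 (SE 1.14, adjusted p = 0.0213) was 2.66 (adjusted p = 0.115) without CD45 RIT 2 and 3.80 (adjusted p = 0.0530) without untreated 2. Epha2, a receptor tyrosine kinase, was at 0.0299 to 7.35 CPM in untreated, 0.215 to 5.46 in TBI, 0.598 to 8.10 in IgG RIT and 30.9 and 69.8 in CD45 RIT (adjusted p = 0.0661 against untreated). Dram1, a lysosomal protein of autophagy, was at 4.91 to 8.66 CPM in untreated, 0.305 to 3.23 in TBI, 0 to 3.78 in IgG RIT and 7.44 and 59.0 in CD45 RIT (adjusted p = 0.150). Trp53inp1, a p53-induced nuclear protein of autophagy and death, was at 8.25 to 37.5 CPM in untreated, 21.9 to 52.4 in TBI, 32.9 to 47.2 in IgG RIT and 88.8 and 0 in CD45 RIT. It was not called in any of the 6 comparisons when all 14 libraries were fitted.

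**Figure D5:**
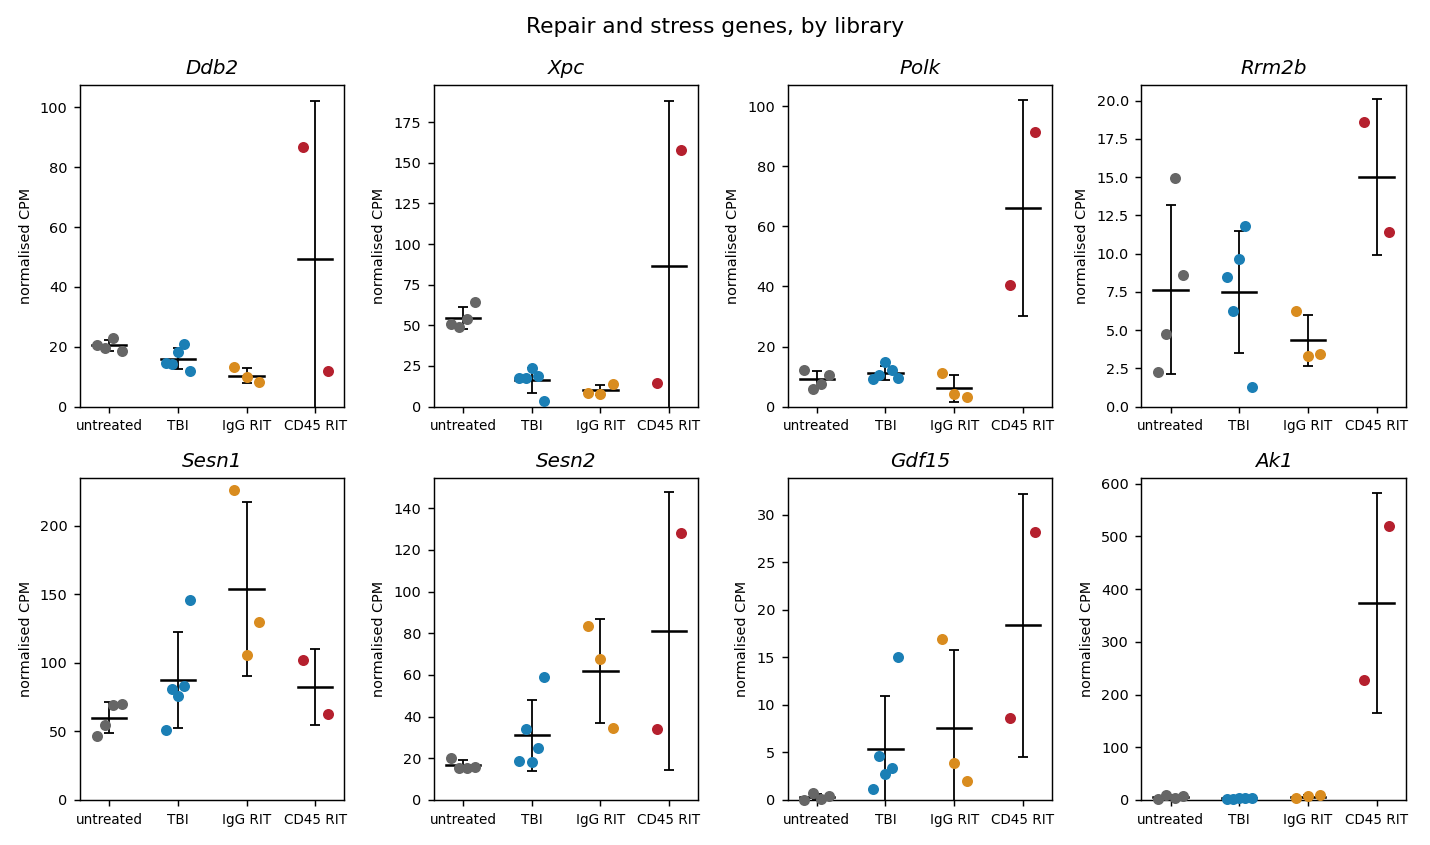
Normalised CPM of 4 repair and 4 stress genes by group; points are libraries, lines are means and bars are SDs, cut at 0. Both CD45 RIT points of Polk and Ak1 lie above all others, Ddb2 and Xpc are each high in 1 CD45 RIT library, and Xpc in TBI and IgG RIT lies below untreated.

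Levels per kilobase of gene length, which allow genes to be compared with each other, changed order between the groups. In untreated libraries the highest mean levels were those of Btg2 (59.7 CPM per kilobase), Trp53 (59.3) and Bax (49.9). Phlda3 (7.09) and Cdkn1a (8.98) stood well below them. In CD45 RIT the highest means were those of Phlda3 (222 CPM per kilobase), Cdkn1a (209), Bax (157), Ak1 (144) and Btg2 (142), with Trp53 at 35.0. In IgG RIT Btg2 led at 302, with Gtse1 (50.8), Ckap2 (48.1) and Bax (47.1) next. SDs over the 2 CD45 RIT libraries were 38.2 for Phlda3, 76.6 for Cdkn1a, 85.0 for Bax, 80.2 for Ak1 and 125 for Btg2. The differences among these genes in CD45 RIT therefore did not exceed the spread, and their order was not resolved.

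The radioimmunotherapies were also compared directly. CD45 RIT had 16 of the 34 genes higher and 4 lower than IgG RIT, where 37.7% of all genes were called, 20.2% higher and 17.5% lower, and the median log2 fold change was 1.64 beside -0.13 over all genes. CD45 RIT had 19 higher and 5 lower than TBI, where 38.6% of all genes were called, 19.6% higher and 19% lower, with a median of 1.50 beside -0.39. Libraries did not overlap for 17 genes above and 6 below IgG RIT (21.7% and 29.6% of all genes) and for 16 above and 5 below TBI (18.2% and 27.6%). Without CD45 RIT 2 the 19 higher calls against TBI became 10. The 4 lower calls against IgG RIT became 2 without TBI 1, 3, 4 or 5 or untreated 1, 3 or 4, and the 5 against TBI became 3 without TBI 3 or 5. In the comparison with untreated, the 5 lower calls became 3 without untreated 1.

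There were 11 genes higher in CD45 RIT than in each of the other 3 groups: Mdm2, Ccng1, Cdkn1a, Plk2, Bax, Fas, Tnfrsf10b, Phlda3, Polk, Zmat3 and Ak1. These 3 comparisons share the CD45 RIT libraries. They called 14.5% (against untreated), 20.2% (against IgG RIT) and 19.6% (against TBI) of all genes higher. The share of all genes higher in all 3 is not given here, so how unusual the 11 are was not tested. IgG RIT was given the same activity as CD45 RIT, 20 µCi, but the sample labels state no absorbed dose for either. Against IgG RIT the log2 fold change was 4.24 for Cdkn1a (SE 0.52, adjusted p = 8.60e-05), 5.24 for Phlda3 (SE 0.47, adjusted p = 1.12e-05), 2.57 for Ccng1 (SE 0.25, adjusted p = 1.63e-05), 1.18 for Mdm2 (SE 0.23, adjusted p = 0.00187) and 1.74 for Bax (SE 0.28, adjusted p = 4.67e-04). Against TBI it was 3.74 for Cdkn1a (SE 0.42, adjusted p = 3.27e-05), 5.79 for Phlda3 (SE 0.39, adjusted p = 9.73e-07), 1.65 for Ccng1 (SE 0.21, adjusted p = 8.23e-05), 1.22 for Mdm2 (SE 0.20, adjusted p = 5.89e-04) and 1.80 for Bax (SE 0.24, adjusted p = 1.06e-04). The largest of the 11 log2 fold changes against IgG RIT were those of Tnfrsf10b (7.16), Fas (6.78), Plk2 (6.00) and Ak1 (5.93), and against TBI those of Ak1 (6.93), Plk2 (5.91) and Fas (5.89). Several rested on CD45 RIT 2. Without it, Tnfrsf10b was at -0.66 against IgG RIT and -2.59 against TBI, and Zmat3 at 3.53 and 2.63. Plk2 was then 3.16 and 3.14, and Bax 0.90 and 1.02. That fit held 1 CD45 RIT library, so its p-values include no spread of that group. With a fit of only the 2 groups compared, Mdm2, Bax, Fas, Plk2, Polk, Tnfrsf10b and Zmat3 were not called against IgG RIT. Calls over all genes there went from 8108 to 1141. Ccng1, Cdkn1a, Phlda3 and Ak1 were still called. Against TBI, only Tnfrsf10b of the 11 was lost. The Tnfrsf10b calls were also lost without any 1 of the IgG RIT libraries (against IgG RIT) or without TBI 1, 3 or 4 (against TBI).

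Other genes also separated CD45 RIT from another irradiated group. Of these, Aen, Ei24, Dram1, Epha2, Xpc, Ddb2 and Ckap2 were not called in CD45 RIT against untreated. Plk3, Perp, Pidd1, Pmaip1, Psrc1 and Bbc3 were. Aen was higher than in IgG RIT (2.19, SE 0.41, adjusted p = 0.00151) and than in TBI (1.06, SE 0.36, adjusted p = 0.0353). Ei24 was higher than in IgG RIT (1.54, SE 0.31, adjusted p = 0.00225) and than in TBI (0.76, SE 0.28, adjusted p = 0.0473), a call that held in 2 of 14 fits without 1 library. Dram1 was higher than in both as well (4.51, adjusted p = 0.0326, and 4.89, adjusted p = 0.00875), and Epha2 was called against TBI (4.11, adjusted p = 0.0235) but not against IgG RIT (3.94, adjusted p = 0.0605). Without CD45 RIT 2, Aen (0.49, adjusted p = 0.348), Dram1 (2.61, adjusted p = 0.150), Epha2 (3.34, adjusted p = 0.0839) and Ei24 (0.50, adjusted p = 0.200) were not called against TBI. Against TBI, Aen was also lost without TBI 3 or 5, Epha2 without TBI 3, and Ddb2 without TBI 1 or 3. Dram1 against IgG RIT was 2.21 (adjusted p = 0.272) without CD45 RIT 2, 4.13 (adjusted p = 0.0939) without IgG RIT 1 and 6.84 (adjusted p = 0.0129) without IgG RIT 3. The repair genes Xpc and Ddb2 were called against IgG RIT (3.10 and 2.25) and TBI (2.41 and 1.62), each on 1 library: without CD45 RIT 2, Xpc stood at 0.37 and -0.23, and without CD45 RIT 1, Ddb2 stood at 0.20 and -0.43. In the other direction, Ckap2 was lower in CD45 RIT than in IgG RIT by 1.71 on the log2 scale (log2 fold change -1.71, SE 0.30, adjusted p = 9.91e-04). Plk3 and Perp were at least 3.29-fold and at least 3.67-fold lower than in IgG RIT, with adjusted p = 0.0436 and 0.0484, calls that held in 3 and 2 of 14 fits without 1 library. Pidd1 was lower than in IgG RIT (-3.92, SE 1.13, adjusted p = 0.0174) and than in TBI (-3.75, SE 1.09, adjusted p = 0.0177), values that were -9.66 and -9.48 without CD45 RIT 1. Against TBI, Plk3 was at least 17.1-fold lower, Perp was at least 5.27-fold lower (a call lost without CD45 RIT 1 or 2 or TBI 1, 3 or 5), and the ratio of TBI to CD45 RIT was 50.5 for Pmaip1 (95% interval 14 to 417, counting error only). Psrc1 (0.95, adjusted p = 0.0101) and Bbc3 (1.70, adjusted p = 0.0271) were higher and Ckap2 lower (-0.78, adjusted p = 0.0388) than in TBI. The first 2 of these were lost without CD45 RIT 2 (adjusted p = 0.0781 and 0.114), Bbc3 also without TBI 1, 3, 4 or 5, and the Ckap2 call held in 6 of 14 fits without 1 library.

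IgG RIT and TBI were compared as well, and 0 of the 34 genes were called, where 0.242% of all genes were called, 0.0697% higher and 0.172% lower. At an unadjusted p under 0.05 there were 10 of the 34 genes and 3984 of all 21509. All IgG RIT libraries lay above all TBI libraries for 4 of the 34 genes (Btg2, Ckap2, Psrc1 and Gtse1) and below them for 3 (Ccng1, Pmaip1 and Ei24), beside 8.37% and 8.44% of all genes. DESeq2 called 2 higher and 4 lower, and 775 of all 21509 genes higher and 1336 lower. Without TBI 6 the edgeR test called 4 higher and 5 lower, and 806 of all genes higher and 1214 lower. Without either CD45 RIT library, which left 1 in that group, it called several of the 34. Its calls over all genes rose in those fits as well. The member nearest the threshold was Ccng1, at -0.92 (SE 0.20, adjusted p = 0.0674), with every IgG RIT library below every TBI library. For the IgG RIT counts against untreated, the 7 higher calls became 3 without IgG RIT 1 and 4 without untreated 2, 3 or 4. The 3 lower calls became 8 without CD45 RIT 1, 5 without CD45 RIT 2, 1 without IgG RIT 2 or 3, TBI 3 or 5, or untreated 2 or 3, and 0 without untreated 1 or 4. Scaling moved the balance: 7 higher and 3 lower became 8 and 0 with RLE factors and 4 and 8 with no scaling factors, as the median over all genes went from -0.42 to -0.21 and -0.94.

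The summed CPM of the stromal markers in both CD45 RIT libraries exceeded that of every other library. The neutrophil and proliferation sums also set both CD45 RIT libraries apart, below every other library, and were not used as covariates. With the log2 stromal sum as a covariate, chosen after seeing the data, 0 of the 34 genes were called in any comparison. The calls over all 21509 genes against untreated in CD45 RIT went from 7116 to 316, and were 0 to 26 in the other 5 comparisons, so the stromal content and the treatment cannot be told apart here. The haematopoietic sum drew its most counts in CD45 RIT from Runx1. With the log2 haematopoietic sum as the covariate, 3 genes were higher in CD45 RIT than in untreated: Ccng1 (2.95, adjusted p = 0.00388), Cdkn1a (2.44, adjusted p = 0.0411) and Phlda3 (5.12, adjusted p = 0.00886). Over all genes that fit called 351 higher and 816 lower there. In IgG RIT against untreated it called 0 of the 34, and 24 of all 21509 genes against 3536 without the covariate, so the 0 is not particular to these genes. Of the 10 genes called there without the covariate, Btg2 was at 1.72, Gdf15 at 1.24, Ckap2 at 0.88, Psrc1 at 0.66, Sesn1 at 0.59, Bbc3 at 0.41, Trp53 at -0.25, Aen at -0.69, Xpc at -0.79 and Sesn2, with its sign changed, at -0.15.

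Other genes of the pathway were followed from 2 further lists. Of 16 upstream kinases and p53 regulators, 14 could be tested and 0 were called in TBI. Usp7, a deubiquitinase of Mdm2 and p53, was higher in IgG RIT (1.37, SE 0.27, adjusted p = 0.00643). Atm, the kinase that senses DNA double-strand breaks, was lower in CD45 RIT (-3.64, SE 1.17, adjusted p = 0.0320). Atm had 245 to 449 counts in untreated libraries, 35 to 102 in IgG RIT and 28 and 0 in CD45 RIT. CD45 RIT 2 also had 0 counts for Atr, Chek1, Chek2, Mdc1 and Prkdc, where CD45 RIT 1 had 190 to 484. Of 20 further p53 targets, 19 could be tested: 0 were higher and 1 lower in TBI (Trp53i13, -1.31, adjusted p = 0.0275), 2 were higher and 4 lower in IgG RIT (5.75% and 10.7% of all genes), and 7 were higher and 5 lower in CD45 RIT (14.5% and 18.6%). Gadd45a, a growth-arrest gene, was higher in both IgG RIT (2.87, SE 0.58, adjusted p = 0.00750) and CD45 RIT (2.48, SE 0.61, adjusted p = 0.00914), with 6687 to 9894 counts in IgG RIT, 8826 and 2379 in CD45 RIT and 1506 to 2209 in untreated. Thbs1, an antiangiogenic matrix protein, was higher in CD45 RIT (3.57, SE 1.24, adjusted p = 0.0427), as was Shisa5 (1.65, SE 0.30, adjusted p = 0.00165), which in IgG RIT was lower (-1.64, SE 0.29, adjusted p = 0.00467). Siva1, a proapoptotic ligand of Cd27, was lower in CD45 RIT (-1.49, SE 0.21, adjusted p = 2.62e-04). The median log2 fold change of these 19 genes in CD45 RIT was -0.29, beside -0.37 over all genes tested.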

How the data were processed

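Bone marrow RNA of 14 libraries was amplified with SMART-Seq v4 and made into libraries with Nextera XT, per the labels' protocols. The deposited file is a single table of raw counts (whole numbers, no normalization). The submitters' processing notes name STAR 2.7.7a, FastQC 0.11.9, edgeR 3.36.0 and a human build, whereas 54587 gene identifiers matched GENCODE M21 (GRCm38), all with the same coordinates. The counter, the strand setting and the handling of shared reads are not given in the sources used here. SMART-Seq carries no molecular identifiers, so floors and intervals cover counting error only.

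Columns were assigned by library name, and samples were grouped by their titles. TBI replicate 2 was not analysed here. Genes passing filterByExpr (minimum count 10, minimum total 15) entered edgeR 4.0.16 (R 4.3.3), with TMM factors and a robust quasi-likelihood fit of 4 group means over the 14 libraries. P-values were adjusted by Benjamini-Hochberg over all 21509 genes within each of 6 contrasts, and a call means an adjusted p under 0.05. SE was taken as the size of the fold change on the log2 scale over the root of F. CPM values use the scaled library size, and marker sums the total count. Where both libraries of a group had 0 counts, a fold is a lower bound against a floor of 3 counts per library. The fit was tested on simulated counts. Fold changes, SE and adjusted p are printed for members called in a contrast, the largest first within a role, and for Trp53, Mdm2, Cdkn1a, Bax and Phlda3 against untreated. Further members are given to account for the list. The members and lists were chosen with earlier results of these data known. Alternatives were RLE factors, no scaling, no filter, DESeq2 1.42.0, the replicate number as a block, only the 2 groups compared, each library left out, and 2 marker sums as covariates, the last chosen after seeing the data.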

Additional observations from a re-analysis of the deposited data

Results flagged for a closer look

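In 68 groups of 4 or 5 libraries (34 genes in untreated and in TBI), 11 had a highest or lowest library whose gap to the nearest other exceeded Dixon's 95% critical value. Chance flags about 1 in 20 groups, and the genes of a library are not independent.

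TBI 6 was the outlying library in 5 of these: Cdkn1a at 115 CPM (the other 4 TBI libraries, 26.7 to 51.2), Ckap2 at 115 CPM (71.2 to 74.8), Eda2r at 3.09 CPM (0.242 to 0.859), Gdf15 at 15.0 CPM (1.13 to 4.63) and Dram1 at 3.23 CPM (0.305 to 0.934). This library also had the highest erythroid marker sum in its group, 176045 CPM against 25715 to 44601, and the lowest haematopoietic sum, 271 CPM against 1165 to 1602. The part of these in the values was not tested.

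In untreated libraries, replicate 1 was high for Mdm4 (47.8 CPM; others 37.8 to 38.7), Eda2r (1.91 CPM; others 0) and Sesn2 (20.0 CPM; others 15.1 to 15.8). Replicate 2 was high for Phlda3 (19.8 CPM; others 7.38 to 9.30), replicate 3 was low for Ei24 (34.2 CPM; others 46.5 to 48.6) and replicate 4 was high for Dram1 (8.66 CPM; others 4.91 to 5.42).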

How the results depend on the processing

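Counts are given as higher and lower calls among the 34 genes. Against untreated, the reported counts were 0 and 0 in TBI, 7 and 3 in IgG RIT and 15 and 5 in CD45 RIT. They were 16 and 4 for CD45 RIT against IgG RIT, 19 and 5 for CD45 RIT against TBI, and 0 and 0 for IgG RIT against TBI. In the same order, DESeq2 gave 5 and 0, 8 and 7, 20 and 4, 15 and 4, 19 and 4, and 2 and 4. RLE factors gave 1 and 0, 8 and 0, 20 and 4, 16 and 4, 21 and 4, and 0 and 0. No scaling gave 0 and 0, 4 and 8, 14 and 6, 16 and 5, 13 and 6, and 0 and 1. No filter gave 1 and 0, 7 and 0, 15 and 5, 16 and 2, 14 and 6, and 0 and 0. Only the 2 groups compared gave 4 and 3, 9 and 3, 13 and 2, 4 and 1, 12 and 2, and 0 and 2. The haematopoietic covariate gave 0 and 0, 0 and 0, 3 and 0, 16 and 2, 9 and 2, and 0 and 0, and the stromal covariate gave 0 and 0 in all 6. Leaving out 1 library gave 0 to 7 and 0 to 1, 3 to 10 and 0 to 8, 14 to 20 and 3 to 6, 11 to 17 and 2 to 5, 10 to 20 and 3 to 5, and 0 to 4 and 0 to 5. Where this left 1 CD45 RIT library, it was assumed to vary like the other groups.

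Blocking on the replicate number, the counts were 0 and 0, 4 and 1, 10 and 3, 11 and 2, 7 and 1, and 0 and 0. Deviations of the 13 same-number pairs correlated at -0.0896 to 0.139, 1 of them over 0.1. With 2 CD45 RIT libraries the deviations of that group mirror each other by construction. These values cannot decide whether same-number libraries share more than the number, such as a day or a batch.

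Among 74 called fold changes, direction was kept in all 74 with RLE factors, no scaling, no filter, the block and only the 2 groups. With DESeq2 it was kept wherever an adjusted p was given, which was not so for 3 (Dram1 in CD45 RIT against IgG RIT and TBI, Epha2 in CD45 RIT against TBI). Signs changed against untreated with the haematopoietic covariate for Sesn2 (-0.15 in IgG RIT, -0.38 in CD45 RIT), Cdkn1a (-1.37 in IgG RIT, -0.18 in TBI) and Trp53 in TBI (0.11; 0.10 with the block). With the stromal covariate they changed for Bax (0.36 in TBI, 0.55 in IgG RIT) and Phlda3 (0.071 and 0.78), for Dram1 in CD45 RIT (-3.42 against IgG RIT, -3.00 against TBI), and against TBI for Psrc1 (-0.26), Xpc (-0.053) and Epha2 (-0.41). Cdkn1a in IgG RIT was -0.22 with no scaling. Bax in IgG RIT, near 0 throughout, was 0.13 with DESeq2 and RLE, 0.051 with no filter and 0.20 with only the 2 groups, and -0.14 to 0.11 with 1 library left out. Phlda3 in IgG RIT was 3.71e-04 with only the 2 groups and -0.43 to 0.17 with 1 left out. Leaving out 1 CD45 RIT library gave ranges of -2.33 to 6.27 against untreated, -0.66 to 8.15 against IgG RIT and -2.59 to 6.13 against TBI for Tnfrsf10b, and against TBI -0.43 to 2.36 for Ddb2 and -0.23 to 3.28 for Xpc. The causes were not tested. With 2 CD45 RIT libraries, genes that split between them, such as Mdm4, Gtse1 and Trp53inp1, were not resolved.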
